A study of Mus musculus with 4 samples.

Results

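A set of 10 RNA-binding genes that steer alternative splicing in muscle and in mesenchymal cells were followed in C3H10T1/2 cells, a fibroblast-like mouse line that can form several mesenchymal lineages, with and without 5-azacytidine (5-AZA), a DNA methylation inhibitor. The 10 genes, Mbnl1, Mbnl2, Mbnl3, Rbfox1, Rbfox2, Celf1, Celf2, Rbm20, Rbm24 and Qk, were chosen by name out of 21878 genes with mRNA values. All 206 transcripts listed for them, out of 75959, were summed per gene, and the 10 circRNAs listed with one of them as host gene, out of 4295, were added. The 2 untreated samples are replicates 1 and 2, and no culture time is listed for them. The 2 treated samples, 5-AZA replicates 101 and 102, received 20 μM 5-AZA for 72 hours and were then kept for 21 days in fresh medium. With no time listed for the untreated samples, an effect of 5-AZA cannot be told apart from one of time in culture. All 4 samples come from this 1 line, and since the labels do not say that they were separate cultures, p-values measure only the spread between these samples.

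An alternatively spliced pre-mRNA gives different mature mRNAs depending on which regulators sit near an exon. Muscleblind proteins (the Mbnl genes) use zinc fingers to bind pre-mRNA and favour the splice forms of adult muscle, while CELF proteins often favour the embryonic forms of the same exons. RBFOX proteins act on many exons of muscle and brain, RBM20 is known above all for the splicing of titin, RBM24 is enriched in heart and skeletal muscle, and the quaking protein encoded by Qk regulates splicing in muscle, glia and mesenchymal cells and can promote the formation of circRNAs.

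After 5-AZA, the muscle-enriched genes Rbm24 and Rbm20 were called higher and Celf2 passed the adjusted p-value with a change below 2-fold. The results for Rbm20 and Celf2 were lost when either 5-AZA sample was left out. The call of the only Rbm24 transcript, in the fit of transcripts, was lost in the same way. The abundant Mbnl1, Mbnl2, Qk, Rbfox2 and Celf1 had mean levels after 5-AZA of 0.835 to 1.13 times the untreated level. Rbm24 was listed at 0 in both untreated samples and at 1.52 and 1.43 FPKM (fragments per kilobase of transcript, scaled to the sequencing depth of the sample) after 5-AZA. In mean FPKM Rbm20 rose 14.6-fold, from a level near 0, and Celf2 1.53-fold. Mbnl3 and Rbfox1 stayed near 0 in every sample.

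Rbm24 and Mbnl3 were both almost without signal in the untreated cells. After 5-AZA, Rbm24 was at 1.52 and 1.43 FPKM, while Mbnl3 stayed near 0 and was too low to test. This pair was chosen after these values were seen. The 300 bases around their RefSeq start (250 before, 50 after) are shown, with each CG dinucleotide in capitals, the site that DNA methylation uses in mammals. The Rbm24 window lies on the plus strand at chr13:46418050-46418349 and the Mbnl3 window on the minus strand at chrX:51205941-51206240 (RefSeq, GRCm38.p6), each printed 5′ to 3′ along its gene. The RefSeq gene bounds of Rbm24 begin at 46418102, so that 198 of the bases before the start used for its window lie inside these bounds.
Rbm24: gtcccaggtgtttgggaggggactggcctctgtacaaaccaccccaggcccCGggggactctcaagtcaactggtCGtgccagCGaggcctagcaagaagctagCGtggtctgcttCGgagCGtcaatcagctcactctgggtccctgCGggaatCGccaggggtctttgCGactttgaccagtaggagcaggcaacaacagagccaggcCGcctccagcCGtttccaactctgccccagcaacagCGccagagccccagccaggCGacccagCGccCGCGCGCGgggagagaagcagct
Mbnl3: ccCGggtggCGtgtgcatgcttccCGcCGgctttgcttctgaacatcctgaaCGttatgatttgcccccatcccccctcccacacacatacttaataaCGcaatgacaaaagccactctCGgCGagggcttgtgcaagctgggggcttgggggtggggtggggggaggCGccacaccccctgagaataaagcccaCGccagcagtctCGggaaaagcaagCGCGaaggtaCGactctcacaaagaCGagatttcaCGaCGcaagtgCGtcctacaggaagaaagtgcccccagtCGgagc
Rbm24 has 18 CG dinucleotides in this window and Mbnl3 has 19, against a median of 7.0 over 32851 RefSeq promoter windows of the same length. At least 18 were found in 29.7% of all windows. The Rbm24 window holds 2 matches to CANNTG, the letters of an E-box, and the Mbnl3 window 1, and 72.3% of all windows hold at least 1. The narrower motifs CAGCTG or CAGGTG, searched on both strands, matched once in the Rbm24 window and not in that of Mbnl3, and 32.9% of all windows hold a match. These motifs are themselves cases of CANNTG. The window table covers 8 of the 10 genes in 14 windows, and their CG counts ranged from 2 at one start of Mbnl1 to 57 at Qk. Rbfox1, also near 0 in the untreated samples, has 3 at one start and 7 at the other. No methylation was measured in these samples.

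Marker genes were examined first, since every value below is an average over mixed cells. Of 13 mesenchymal markers, 11 reached a mean of 1 FPKM in the untreated and 12 in the 5-AZA samples, and Nt5e was listed at 0 in both untreated samples. Their sum was 4072 and 4121 FPKM untreated and 3396 and 3664 FPKM after 5-AZA, with 1 of 12 tested called higher (Thy1), and with any fold 5 were higher and 3 lower at an adjusted p-value under 0.05 (limma), among them Vim at 0.547 times its untreated level. Over 20 skeletal muscle markers the summed level was 2.41 and 2.04 FPKM untreated and 1158 and 1728 FPKM after 5-AZA, with all 18 markers that could be tested called higher and Myf5 and Myf6 at 0 throughout. Many of the 18, such as Myod1 and Cav3, reached the mean of 0.1 FPKM needed for a test only through the 5-AZA samples. Only a rise could be found for these. Over 8 adipocyte markers the sum went from 44.1 and 27.9 to 1100 and 1501 FPKM (6 of 7 tested called higher). Neuronal markers stayed between 1.56 and 2.02 FPKM in sum, with Snap25 at 0 and 1 of 3 tested called higher. Cardiac markers summed to 0.321 to 3.52 FPKM, with Nppa, Nppb, Myl7, Tbx5 and Hand2 at 0 in all samples and both of the 2 tested called higher. Smooth muscle markers summed to 196 to 301 FPKM (2 of 5 tested called higher) and immune markers to 1.16 to 3.70 FPKM, with Adgre1 and Cd3e at 0 and the 1 tested called higher. Among the called markers of fat, heart and smooth muscle, Cidec, Myh6 and Cnn1 could likewise be tested only through the 5-AZA samples. The 20 proliferation genes, none of them called (before adjustment, p was under 0.05 for 0 higher and 5 lower, limma), summed to 445 and 355 FPKM untreated and to 343 and 336 FPKM after 5-AZA. In such bulk samples a change in the number of cells of a type cannot be told apart from a change in RNA per cell.

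**Figure D1:**
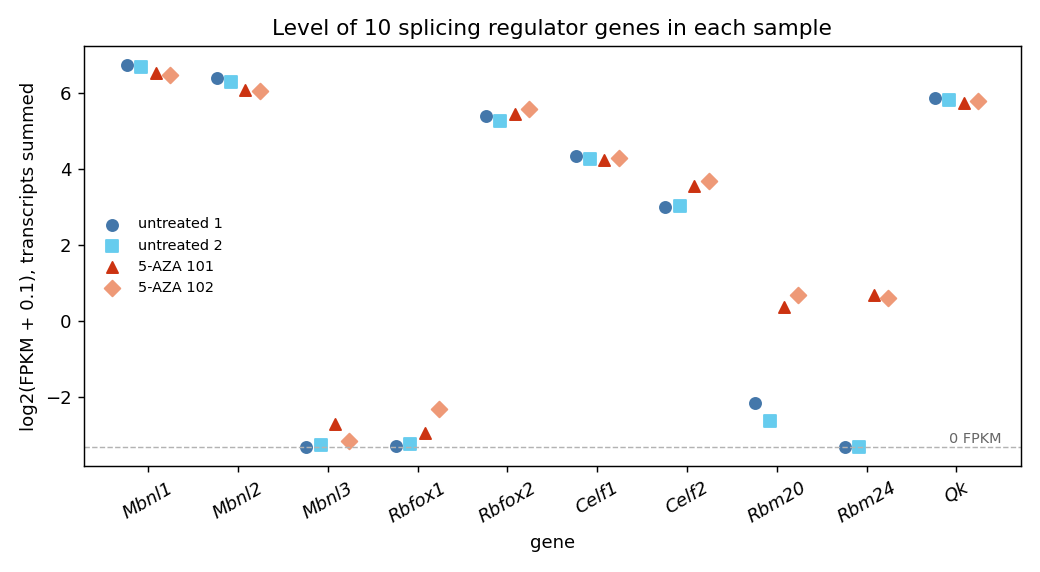
Level of each gene in each of the 4 samples as log2(FPKM + 0.1), with all transcripts of a gene summed; the dashed line marks 0 FPKM. The 6 most abundant genes lay above 1 FPKM in all samples, Rbm20 and Rbm24 only after 5-AZA, and Mbnl3 and Rbfox1 stayed near the line.

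By level, which FPKM allows to compare between genes because it is scaled to length, the untreated cells held Mbnl1 at 105 ± 2.90, Mbnl2 at 81.2 ± 4.60, Qk at 57.9 ± 1.70, Rbfox2 at 40.6 ± 2.79, Celf1 at 19.8 ± 0.637 and Celf2 at 7.98 ± 0.0948 FPKM (SD, n = 2). Each of these 6 genes was apart from its neighbours in both samples. The next was Rbm20 with 0.0933 ± 0.0447 FPKM, followed by Rbfox1, Mbnl3 and Rbm24, with levels of 0 to 0.00539 FPKM, where Rbfox1 and Mbnl3 overlapped, as did Mbnl3 and Rbm24. After 5-AZA the first 6 kept this order. Rbm24 with 1.47 ± 0.0666 and Rbm20 with 1.36 ± 0.215 FPKM came next and overlapped each other. The 10 genes together summed to 322 and 304 FPKM untreated and to 292 and 295 FPKM after 5-AZA.

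Changes were tested with limma on log2(FPKM + 0.1) over all 13199 genes with a mean of at least 0.1 FPKM, and calls required more than a 2-fold change together with a Benjamini-Hochberg adjusted p-value under 0.05. On this scale the change of a low gene is understated. Of the 10 genes, 8 passed the limit on low values, and Mbnl3 and Rbfox1 did not. Rbm20 and Rbm24, with untreated means of 0.0933 and 0 FPKM, passed it only through the 5-AZA samples, so only a rise could be found. Rbm20 and Rbm24 were called higher and none was called lower (before adjustment, p was under 0.05 for 1 lower, limma), while 13.1% of all genes tested were called higher and 1.32% lower. The split of the calls over all genes, 1724 higher and 174 lower, became 1041 and 886 after quantile normalization. The median log2 change of all genes was 0.05, and it moved to -0.06 after centring each sample on its median and to -0.12 after quantile normalization, so that small changes are relative to this point. Both 5-AZA samples lay above both untreated samples for Rbfox2, Celf2, Rbm20 and Rbm24, and below them for Mbnl1, Mbnl2 and Qk. Over all genes tested, 36.8% lay apart in this way upwards and 25.4% downwards.

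**Figure D2:**
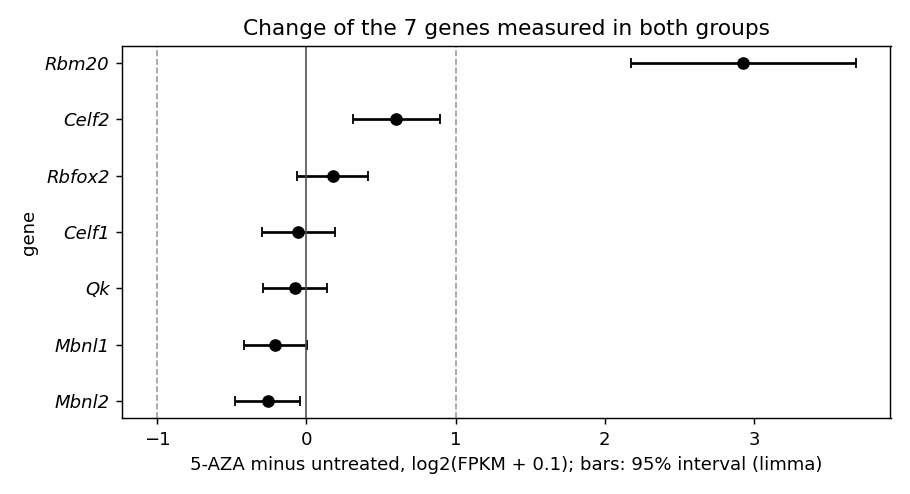
Difference between the 5-AZA and the untreated samples in log2(FPKM + 0.1) for the 7 genes with signal in both groups and a mean of at least 0.1 FPKM; bars are 95% intervals from limma and dashed lines mark 2-fold. Rbm20 lies beyond the 2-fold line, Celf2 lies between 0 and that line with its whole interval above 0, and the interval of Mbnl2 lies below 0.

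Rbm24 encodes an RNA-binding protein with a single RNA recognition motif that promotes the inclusion of muscle exons. Its only listed transcript, NM_001081425.1, was at 0 FPKM in untreated replicates 1 and 2 and at 1.52 and 1.43 FPKM in 5-AZA replicates 101 and 102. The difference passed in the fit of all genes (adjusted p = 4.10e-05, limma), and no fold change is given against a group listed at 0. On the log scale both untreated values are the pseudocount, with no spread between them. The gene passed the limit on low values only through the 5-AZA samples. Its direction was thus fixed before the test, and the p-value lends it no further support. Rbm24 was called in each of the 12 other settings in which it was tested as a gene, with log2 changes from 1.31 to 7.21. Tested as a transcript, with the same values, it was called (adjusted p = 0.0359, limma), but in only 4 of 10 other settings. With a limit of 1 FPKM on the mean it was not tested. The gene covers positions 46418102 to 46431099 of chromosome 13 (GRCm38.p6).

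Rbm20 encodes a regulator of the titin mRNA and of other sarcomere and calcium-handling mRNAs. It was listed at 0.125 and 0.0617 FPKM in the untreated samples and at 1.21 and 1.51 FPKM after 5-AZA. The groups were well apart, with a log2 change of 2.93 (standard error 0.33, 95% interval 2.17 to 3.68, adjusted p = 2.73e-04, limma). After quantile normalization the log2 change was 1.86 (adjusted p = 0.00515, limma). With a pseudocount of 1 FPKM it was 1.11, and the gene was still called. The ratio of mean FPKM was 22.0 without untreated replicate 1 and 10.9 without untreated replicate 2. The call rested on having both treated samples: without 5-AZA replicate 101 the change was 3.08 (adjusted p = 0.0551, limma) and without replicate 102 it was 2.78 (adjusted p = 0.0632, limma). Its signal was divided among several transcripts. The most abundant by mean were NM_001170847.1, at 0.0325 and 0.0139 FPKM untreated and 0.433 and 0.601 FPKM after 5-AZA, and XM_011247371.1, at 0.0533 and 0.0164 against 0.593 and 0.401 FPKM. XM_006527385.3 was at 0.0117 and 0.00839 FPKM untreated and at 0.0253 and 0.446 FPKM after 5-AZA, and held 2.10% of the gene's level in 5-AZA replicate 101 and 29.6% in replicate 102. XM_011247372.2 held 13.6% and 16.8% of the gene's level in untreated replicates 1 and 2. In 5-AZA replicates 101 and 102 it held 12.1% and 3.81%. All of these Rbm20 transcripts fell below the level set for naming and were chosen after their values were seen. The gene lies on chromosome 19 from 53660989 to 53867083 (GRCm38.p6).

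The skeletal muscle markers, the adipocyte markers and the RBM genes were all higher in the same 2 samples, and the part of either marker list in the rise of Rbm20 and Rbm24 was not tested. All 18 muscle markers tested and all 7 adipocyte markers tested were higher in 5-AZA replicate 102 than in replicate 101, with median ratios of 1.48 and 1.42. The same ratio was 1.25 for Rbm20, 1.10 for Celf2 and 0.938 for Rbm24, which was the only one of the 3 to be lower in replicate 102.

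Among the CELF genes, Celf2 passed the adjusted p-value and Celf1 did not. Celf2 was at 7.92 and 8.05 FPKM untreated and at 11.6 and 12.8 FPKM after 5-AZA. Both treated samples lay above both untreated samples, with a log2 change of 0.60 (standard error 0.13, 95% interval 0.31 to 0.89, adjusted p = 0.00881, limma), below the 2-fold limit of a call. At an adjusted p-value below 0.05 with no limit on fold, 18.6% of all genes tested were higher and 5.93% lower, and 3 of the 8 regulators tested were higher and 0 lower (before adjustment, p was under 0.05 for 1 lower, limma). Besides Celf2, these 3 were Rbm20 and Rbm24, which could be tested only through the 5-AZA samples. Their direction was thus fixed before the test, and the count is not a sign of enrichment. Without 5-AZA replicate 101 or 102 the adjusted p-value of Celf2 was 0.0714 or 0.0974 (limma). Celf1, a ubiquitous member of the family that also acts in mRNA decay, was at 20.2 and 19.3 FPKM untreated and 18.7 and 19.4 FPKM after 5-AZA, and these ranges overlapped. Its log2 change was -0.05 with a 95% interval from -0.30 to 0.19 (adjusted p = 0.773, limma). Celf2 held 28.1% and 29.4% of the summed Celf1 and Celf2 level in the untreated samples and 38.3% and 39.7% after 5-AZA, which is a description of 2 against 2 samples with no test.

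The values of the 31 Celf2 transcripts did not all lean the same way, but no difference between them passed a test. NM_001110229.1 (variant 2) was at 2.20 and 1.59 FPKM untreated and 3.77 and 5.46 FPKM after 5-AZA. NM_001110230.1 (variant 3) was at 0.796 and 0.719 FPKM untreated and 2.52 and 2.54 FPKM after 5-AZA, and NM_001110232.1 (variant 5) at 0.418 and 0.569 against 1.17 FPKM and 1.16 FPKM. These 3 curated transcripts were higher in both treated samples. NM_001110228.1 (variant 1) was lower in both, at 1.22 and 1.18 FPKM untreated and 0.112 and 0.526 FPKM after 5-AZA. None of them was called over the 35557 transcripts tested, with adjusted p-values of 0.141, 0.0946, 0.341 and 0.283 in this order (limma). In the test of a transcript against the rest of its gene the adjusted p-values were 0.768, 0.666, 0.858 and 0.519 (limma). The predicted XM_017315442.1 (variant X9) was also higher in both treated samples, without a call (adjusted p = 0.641, limma). It was at 0.685 and 0.464 FPKM untreated and at 0.935 and 0.837 FPKM after 5-AZA. Curated transcripts held 64.2% and 65.0% of the Celf2 level untreated and 74.6% and 82.6% after 5-AZA. With curated transcripts alone the log2 change of the gene was 0.88 (adjusted p = 0.0151, limma). Celf2 has 5 start windows in the RefSeq table, with 48 CG dinucleotides in the richest and 4 in the poorest, and the window table does not pair them with transcripts.

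**Figure D3:**
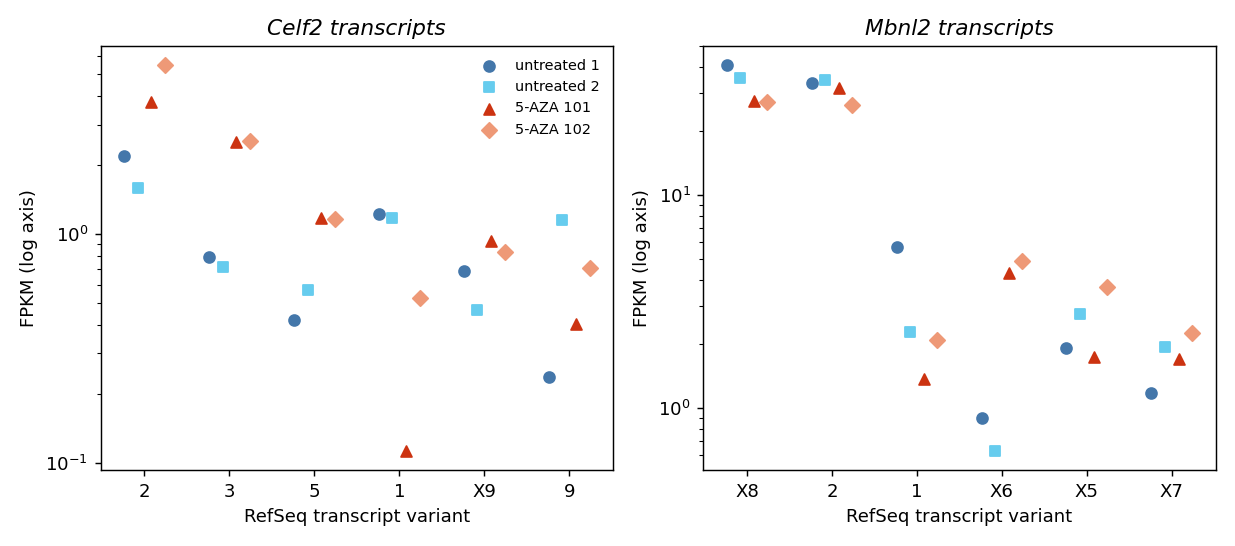
FPKM of each transcript of Celf2 (left) and Mbnl2 (right) with a mean of at least 0.5 FPKM, in each of the 4 samples on a log axis, by RefSeq variant. Celf2 variants 2, 3, 5 and X9 were higher and variant 1 lower in both 5-AZA samples, and Mbnl2 variant X6 was the only Mbnl2 transcript higher in both.

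Mbnl1 and Mbnl2 were the most abundant of the set, and both had lower values in the treated samples without passing the test. Mbnl1 was at 107 and 103 FPKM untreated and 92.9 and 89.0 FPKM after 5-AZA. The groups did not overlap, but the log2 change of -0.21 (95% interval -0.42 to 0.00165, adjusted p = 0.144, limma) did not pass. Mbnl2 was at 84.4 and 77.9 FPKM untreated and 68.5 and 67.1 FPKM after 5-AZA, a log2 change of -0.26 (95% interval -0.48 to -0.04, adjusted p = 0.0854, limma). Under median centring both passed at an adjusted p-value below 0.05 (0.0428 for Mbnl1 and 0.0216 for Mbnl2, limma), with log2 changes of -0.32 and -0.37, which are smaller than 2-fold. Mbnl3, the muscleblind gene linked to proliferating myoblasts and other immature cells, was listed at 0 and 0.00423 FPKM untreated and at 0.0532 and 0.0125 FPKM after 5-AZA, too low to test. Mbnl1 held 55.9% to 57.6% of the summed Mbnl level in every sample and Mbnl2 nearly all of the rest. The ratio of the summed Mbnl level to the summed level of Celf1 and Celf2, which act in opposite directions on many shared exons, was 6.81 and 6.61 untreated and 5.32 and 4.86 after 5-AZA, a description with no test.

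One transcript of Mbnl2 was called higher, while the gene was not. XM_006518374.3 (variant X6), a predicted transcript, was at 0.893 and 0.628 FPKM untreated and at 4.28 and 4.90 FPKM after 5-AZA. Both treated samples were higher, and it was called with a log2 change of 2.46 (standard error 0.33, adjusted p = 0.0271, limma). It made up 1.06% and 0.806% of the Mbnl2 level untreated and 6.25% and 7.30% after 5-AZA, a change that did not pass in the test of a transcript against the rest of its gene (adjusted p = 0.406, limma). The call was lost with any 1 of the 4 samples left out, with adjusted p-values from 0.117 to 0.266 (limma) and log2 changes from 2.24 to 2.68. The main transcripts XM_006518376.3 (variant X8), at 40.7 and 35.5 against 27.6 and 27.5 FPKM, and NM_207515.2 (variant 2), at 33.7 and 34.7 against 31.7 and 26.4 FPKM, were lower in both treated samples and were not called (adjusted p = 0.143 and 0.458, limma). The quantifier divides reads among transcripts that share exons, and how this division affected each value was not tested.

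Among 39 transcripts of Mbnl1, the top 2 held only 23.2% of the gene's level, and none was called. XM_006501796.2 (variant X25) was at 6.12 and 5.09 FPKM untreated and 14.1 and 9.30 FPKM after 5-AZA (log2 change 1.02, adjusted p = 0.128, limma). NM_001253709.2 (variant 3) was at 0.988 and 2.60 FPKM untreated and 0.0335 and 0.278 FPKM after 5-AZA (log2 change -2.93, adjusted p = 0.160, limma). The most abundant curated forms were steadier. NM_001253708.2 (variant 2) was at 10.4 and 11.5 against 12.4 and 11.7 FPKM, and NM_020007.4 (variant 1) at 12.1 and 10.6 against 9.70 and 12.5 FPKM.

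Rbfox2, the widely expressed RBFOX gene, was at 42.5 and 38.6 FPKM untreated and 44.0 and 47.7 FPKM after 5-AZA. Both treated samples were higher, but the log2 change of 0.18 (95% interval -0.06 to 0.42, adjusted p = 0.267, limma) did not pass. Of its 41 transcripts none was called. NM_001110830.2 (variant 6) had the largest difference in mean FPKM among those with a mean of at least 0.5 FPKM, from 10.6 and 6.69 to 14.4 and 16.1 FPKM (log2 change 0.84, adjusted p = 0.191, limma). XM_017316812.1 (variant X25) was lower, from 1.95 and 2.35 to 1.17 and 0.543 FPKM (log2 change -1.31, adjusted p = 0.264, limma). Rbfox1, the paralogue of adult skeletal muscle, heart and neurons, was at 0.00168 and 0.00539 FPKM untreated and 0.0299 and 0.101 FPKM after 5-AZA. Both treated samples were higher than both untreated samples, at levels below the limit for a test. Rbfox2 made up 99.8% of the summed level of both genes in 5-AZA replicate 102, 99.9% in replicate 101 and more in the untreated samples.

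Qk was at 59.1 and 56.7 FPKM untreated and 53.8 and 55.9 FPKM after 5-AZA, with a log2 change of -0.08 (95% interval -0.29 to 0.14, adjusted p = 0.611, limma). Its 4 transcripts did not move alike in their values. NM_001159517.1 (variant 1) was at 24.2 and 22.7 against 20.9 and 21.0 FPKM and NM_001159516.1 (variant 2) at 18.7 and 19.5 against 15.2 and 16.8 FPKM. NM_021881.2 (variant 3) was at 12.2 and 11.4 against 12.2 and 11.2 FPKM, with no separation. XM_006523300.2 (variant X1), a predicted transcript, was at 4.01 and 3.08 FPKM untreated and 5.58 and 6.92 FPKM after 5-AZA (log2 change 0.80, adjusted p = 0.202, limma). None of the 4 was called.

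Over all of these genes, 94 of 206 transcripts passed the limit on low values, and 2 were called higher (XM_006518374.3 of Mbnl2 and NM_001081425.1 of Rbm24) and 0 lower, against 2.1% and 0.262% of all transcripts tested. Before adjustment, p was under 0.05 for 10 higher and 9 lower transcripts. NM_001081425.1 was not called with any 1 of the 4 samples left out (adjusted p = 0.184 to 0.237, limma). The groups were apart upwards for 21 of the 94 and downwards for 22, and over all transcripts these shares were 25.6% and 20.9%. Whether a transcript moved against the others of its gene was tested on log2 of its level over the level of the rest, for 90 transcripts of the set and 29762 in all. None of the 90 passed (before adjustment, p was under 0.05 for 1 higher and 5 lower, limma), and the share called over all transcripts was 0 in either direction. The smallest adjusted p-value over all transcripts was 0.197. With a pseudocount of 1 FPKM, XM_006518374.3 of Mbnl2 was called in this test (log2 change of the share 2.01, adjusted p = 0.0368, limma).

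The 10 circRNAs of these host genes are back-spliced RNAs counted by their junction reads, scaled by the authors to the depth of the sample (RPM). Read numbers were inferred from the steps between RPM values, which correspond to 92903364 to 93920706 reads per sample. In all, 78 of 48023 junction reads in the series came from these circRNAs, 21 and 22 in the untreated and 18 and 17 in the 5-AZA samples. The whole series had 13282 and 13388 such reads in the untreated and 10905 and 10448 in the 5-AZA samples. Only 3 of the 10 were seen in more than 1 sample. circRNA_1376, an exonic circRNA of 619 bases from Mbnl2 on chromosome 14 (120324794 to 120325412), had 16 and 9 reads untreated and 8 and 9 reads after 5-AZA. One sample of each group had 9 reads, so that in RPM the groups were apart only by 0.0963 against 0.0958, and the log2 change was -0.43 (standard error 0.36, adjusted p = 0.720, limma). circRNA_1782 of Qk (404 bases) had 3 and 2 against 6 and 0 reads, and circRNA_2668 of Mbnl1 (483 bases) had 0 and 6 against 2 and 2 reads. None of the 3 tested was called or fell below an unadjusted p-value of 0.05, and the share called over all 1360 circRNAs tested was 0 (before adjustment, p was under 0.05 for 91 higher and 160 lower, limma). The other 7 were listed in 1 sample each with 2 or 3 reads, from Mbnl1, Rbfox2, Celf2, Rbm20 and Qk, and a circRNA with fewer than 2 reads is listed at 0. No difference in circRNAs of these genes was detected. Mbnl3, Rbfox1, Celf1 and Rbm24 had none. The positions of circRNAs are those the authors list: their best transcripts lay inside the GRCm38.p6 bounds of the gene in 85.9% of 2388 cases, although the submitters' notes name mm9.

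Other splicing genes were read from lists chosen with earlier results of these data known. Among the 6 paralogues of these regulators, Celf3 to Celf6, Rbfox3 and Rbm38, 2 could be tested and Rbm38 was called higher. Rbm38, a close relative of Rbm24, was at 0.0776 and 0.0971 FPKM untreated and 1.11 and 2.12 FPKM after 5-AZA (log2 change 3.13, standard error 0.37, adjusted p = 3.46e-04, limma). Celf3 was at 0 throughout. Among 28 other regulators of tissue-specific splicing, 2 of 17 tested were called higher and 0 lower (before adjustment, p was under 0.05 for 1 lower, limma), with a median log2 change of -0.05. This was 11.8% called higher, against 13.1% of all genes. The calls depended on the setting, with 0 called higher with a pseudocount of 1 FPKM or without 5-AZA replicate 101, and 0 higher and 2 lower after quantile normalization. Rbpms, a regulator of smooth muscle splicing, rose from 3.38 and 2.99 to 7.58 and 6.62 FPKM (log2 change 1.13, adjusted p = 0.00124, limma). Rbm47 rose from 0.0156 and 0.00761 to 0.278 and 0.162 FPKM (adjusted p = 0.0309, limma). Of the 7 SR protein kinases, which phosphorylate SR proteins, Srpk3 alone was called. Srpk3, the muscle-specific kinase of the family, was at 0.0981 and 0.0826 FPKM untreated and 1.03 and 1.35 FPKM after 5-AZA (log2 change 2.75, standard error 0.32, adjusted p = 3.21e-04, limma). Rbm38, Rbm47 and Srpk3 lay below the mean level set for naming and were named after their values were seen. With untreated means of 0.0873, 0.0116 and 0.0903 FPKM, these 3 passed the limit on low values only through the 5-AZA samples. Only a rise could thus be found for them, and their p-values lend the direction no further support.

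General splicing factors were not called at the 2-fold limit, and 6 of them were lower at an adjusted p-value under 0.05 with any fold. Over all genes tested, 5.93% were lower in this way, and 5914 of 13199 had a negative log2 change. Of 12 SR proteins tested, 11 had a negative log2 change and none was called (before adjustment, p was under 0.05 for 0 higher and 5 lower, limma), with a median of -0.14. With any fold, 2 passed as lower, Srsf1 with a log2 change of -0.31 (adjusted p = 0.0455, limma) and Srsf3 with -0.35 (adjusted p = 0.0227, limma). Of 23 hnRNP proteins 18 were negative and none was called (before adjustment, p was under 0.05 for 0 higher and 10 lower, limma), with a median of -0.19. With any fold, 4 passed as lower, Hnrnpa1, Hnrnpd, Hnrnpdl and Pcbp1, with log2 changes of -0.33, -0.56, -0.32 and -0.42 and adjusted p-values of 0.0370, 0.0345, 0.0421 and 0.0305 (limma). These 6 genes were named after their values were seen. Of 25 core spliceosome genes 15 were negative and none was called (before adjustment, p was under 0.05 for 2 higher and 0 lower, limma), with a median of -0.03. All changes in these 3 lists lay between -0.56 and 0.38.

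Genes known as splicing targets of these regulators in muscle were called higher in 13 of 26 cases and lower in none (before adjustment, p was under 0.05 for 3 lower, limma), with a median log2 change of 1.12. With any fold, 16 were higher and 3 lower at an adjusted p-value under 0.05 (limma). The largest rises among those at 1 FPKM or more were in Tnnt3, fast skeletal troponin T, from 0.165 and 0.254 to 91.1 and 128 FPKM (log2 change 8.46, adjusted p = 1.66e-07, limma), in Atp2a1, the calcium pump of fast muscle (log2 change 6.98, adjusted p = 1.93e-06, limma), and in Ttn, titin (log2 change 6.13, adjusted p = 1.35e-06, limma). Ttn went from 0.0168 and 0.0120 to 7.24 and 8.59 FPKM. Several of the 13 called targets passed the limit on low values only through the 5-AZA samples, so only a rise could be found. Ttn and Atp2a1, with untreated means of 0.0144 and 0.0889 FPKM, were among them. These are gene levels, and the inclusion of single exons was not analysed here.

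**Figure D4:**
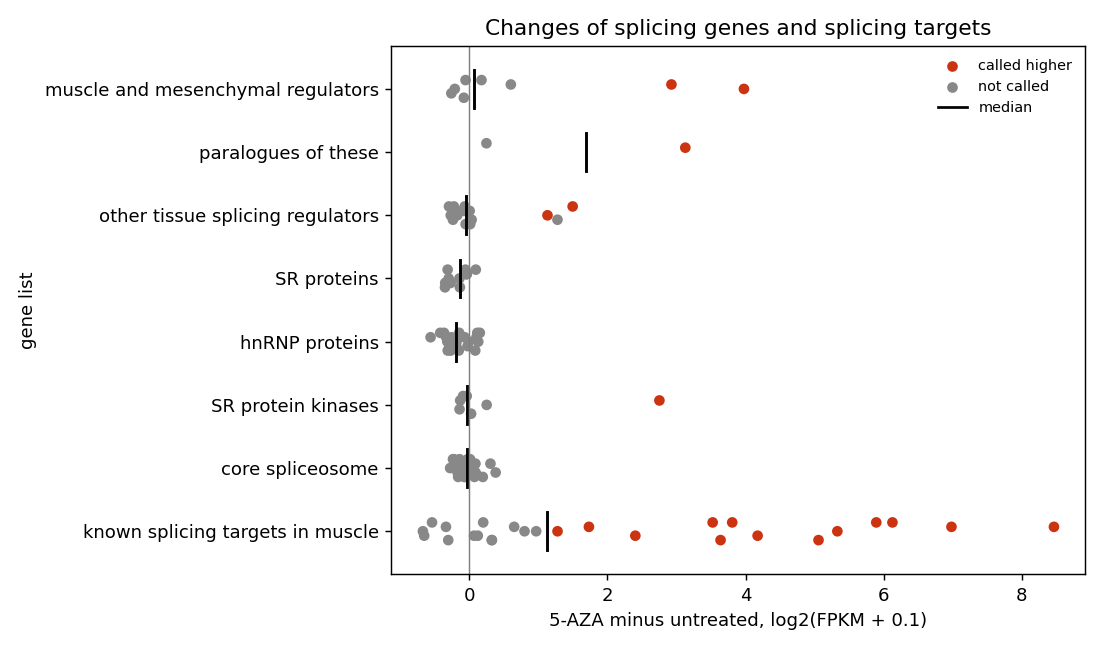
Difference between the 5-AZA and the untreated samples in log2(FPKM + 0.1) for each gene tested, by list; red points were called higher, grey points were not called and black bars are medians. SR, hnRNP and core spliceosome genes cluster near 0, while 13 splicing targets, Rbm20, Rbm24, Rbm38 and Srpk3 lie to the right; genes listed at 0 in untreated samples sit where the pseudocount of 0.1 places them.

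The profiles most like those of the called regulators were sought among 112 splicing regulators and targets by the Euclidean distance of log2(FPKM + 0.1) over the 4 samples, each gene centred on its own mean. With so few samples this distance depends largely on the size of the change between the groups. The list of targets, with 13 of 26 tested called higher, was chosen with earlier results of these data known. Srpk3, at a distance of 0.310, and Tpm2, the gene of beta-tropomyosin, at 0.613, were nearest to Rbm20. Trdn, the gene of triadin at the calcium release site, at 0.447, and Nrap, which encodes a protein of forming myofibrils, at 0.617, were nearest to Rbm24. Rbm24 and Nrap were listed at 0 in both untreated samples and Trdn in 1 of them, so that the untreated side of these profiles is set by the pseudocount.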

How the data were processed

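RNA depleted of ribosomal RNA from 2 untreated and 2 5-AZA samples was sequenced by the authors with a stranded kit. The submitters' processing notes name Trimmomatic, HISAT2, Bowtie2 2.2.9 and eXpress 1.5.1, and mm9. The authors deposited FPKM values per mRNA transcript and RPM values per circRNA. FPKM keeps no read counts, so depth behind an mRNA value is unknown, and with 2 samples a group the smallest exact permutation p is 0.333. lncRNA values were not used, a marker gene is not reported here, and the tool that predicted circRNAs is not given in the sources used here.

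From these values, FPKM was summed per gene. limma 3.58.1 (lmFit and eBayes with trend, R 4.3.3 with its data.table package, version 1.17.8) was fitted to log2(FPKM + 0.1) of all genes, and likewise of all transcripts, with a mean of at least 0.1 FPKM, to the log2 ratio of a transcript to the rest of its gene (gene mean of at least 1 FPKM), and to log2(RPM + 0.0213) of circRNAs detected in at least 2 samples. Each was adjusted by Benjamini and Hochberg's approach over all features. The fits were tested on simulated data with large planted changes, which does not show how well smaller changes would be found. The 10 genes and all lists were chosen with earlier results of these data known. Named features are the 10 genes, their transcripts with a mean of at least 0.5 FPKM, their circRNAs with at least 10 reads, and from each list up to 3 called genes per direction with a mean of at least 1 FPKM, and for each of the 10 genes that was called the 2 nearest list genes by profile; exceptions are stated. Junction reads are RPM divided by the step between values, and the largest deviation from a whole number was 4.55e-12 reads. Promoter windows are RefSeq's. Other pseudocounts, limits, scalings, transcript sets, eBayes without trend and omission of each sample were tried.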

Additional observations from a re-analysis of the deposited data

How the results depend on the processing

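No paired analysis was possible because the replicate numbers 1, 2, 101 and 102 are not shared between the groups. Rbm24 and Rbm20 kept their direction in every setting that tested them. Levels near 0 in the untreated samples left both little room for any other direction. With each sample left out in turn, 1 to 2 regulators were called higher, 1 to 3 were higher at an adjusted p-value below 0.05, 733 to 1617 genes were called higher and 52 to 184 lower, 0 regulator transcripts were called higher, and 0 to 175 transcripts were called higher and 0 to 2 lower. With a mean of at least 1 FPKM, Rbm20 and Rbm24 were not tested, so 0 regulators were called higher, 1 (Celf2) passed the adjusted p-value, 845 genes were called higher, and 1 regulator transcript was called. Without a limit on low values, 83 genes were called lower, and 0 regulator transcripts and 0 transcripts in either direction were called. A pseudocount of 1 FPKM gave 875 genes higher and 86 lower, and 1 regulator transcript and 193 transcripts in the test of shares. A pseudocount of 0.01 FPKM gave 1 regulator transcript higher and 60 transcripts lower, and eBayes without trend 1 and 51. Median centring put 2 regulators lower at an adjusted p-value below 0.05 and called 164 transcripts lower. Quantile normalization put 1 lower and gave 1041 genes higher and 886 lower. With no limit on fold change 783 genes were lower. For circRNAs, 8 were called among those detected in all 4 samples and 3 over any detected, none of these regulators' circRNAs among them. Apart from these stated causes, the cause of each shift was not tested. The planned count test of circRNA reads was not run, because the deposited values are RPM and the reads were inferred from their steps. Unknown depth limits the mRNA values, and few junction reads limit the circRNAs.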
